A study of Mus musculus with 8 samples.

Results

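Genes of lipid transfer and efflux were followed in SV-LECs, a mouse lymphatic endothelial cell line, left untreated or exposed to TGFβ1. The 10 genes were *Pltp*, *Lpl*, *Apoe*, *Abca1*, *Abcg1*, *Nr1h3*, *Cd36*, *Pparg*, *Ppard* and *Plin2*, out of 55471 genes in the count table. They were chosen by name. The only measured value in the choice was the row total for a symbol listed more than once, and none of the 10 symbols was repeated. The list was drawn up with earlier results of the same comparison known, so the test results below describe these genes and are not independent evidence about them. For 9 of them a row with exactly that symbol was found. *Ppard* shares its row label with 1810013A23Rik and was found by its Ensembl identifier, ENSMUSG00000002250.

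SV-LECs are a line immortalized with SV40 that was derived from mesenteric adventitial tissue. They were grown in DMEM with high glucose and 10% FBS. Poly(A) RNA of 4 untreated samples and of 4 samples given 10 ng/ml TGFβ1 for 72 h was sequenced as 75-base single reads. The study's methods call the quadruplicates technical, and all come from a single line, so the p-values measure only the spread between these libraries.

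Plasma lipids travel in lipoprotein particles, and lymphatic vessels return chylomicrons from the gut and HDL from the tissues to the blood. Lipoprotein lipase releases fatty acids from triglycerides at the vessel wall, phospholipid transfer protein moves phospholipids between particles, and ABCA1 and ABCG1 pass cellular cholesterol to apolipoproteins and HDL. The nuclear receptors LXR and PPAR sense oxysterols and fatty acids, respectively, and control many of these genes together with their partner RXR.

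The libraries held 19182616 to 26077972 counted reads in the untreated group and 18952504 to 26386941 in the TGFβ1 group. A total of 13818 genes passed the filter on low counts, and 75.6% of them differed between the groups at a false discovery rate (FDR) under 0.05 in edgeR's likelihood ratio test. Of the genes tested, 37.6% were higher and 38.0% were lower after TGFβ1 (5198 and 5251 genes). The 4 libraries of one group lay wholly above or below the 4 of the other for 69.8%. All 11 tested genes of a 12-gene list of known TGFβ responses were higher, *Ltbp2*, *Thbs1* and *Ccn2* with the largest rises. The untested gene of that list, *Tgfbi*, had at most 3 counts in every library of both groups. Of 9 lymphatic markers, *Flt4*, *Pdpn* and *Nrp2* were measured well, whereas *Prox1*, *Lyve1*, *Ccl21a* and *Reln* had at most 3 counts in every library. Of 9 general endothelial markers, *Cdh5*, *Tie1*, *Erg* and *Emcn* were likewise at 3 counts or fewer and *Pecam1* was too low to be tested. Of the other 4, *Kdr* and *Eng* were higher, *Egfl7* was lower and *Tek* was not called, and the list summed to 76.4 to 83.7 CPM in untreated and 166 to 175 CPM in treated libraries. Thus several defining markers of the cell type in the line's name were at or near 0.

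Of the 10 lipid genes, 8 passed the filter. After TGFβ1, 5 were higher (*Pltp*, *Plin2*, *Ppard*, *Nr1h3* and *Abca1*) and 2 were lower (*Lpl* and *Apoe*). *Pparg* did not pass the test, and *Abcg1* and *Cd36* were too low to be tested. The 7 called of 8 tested stand beside the 75.6% called among all genes, and the 6 of 8 whose groups did not overlap stand beside 69.8%. The median log2 fold change of the 8 was 0.53, against -0.006 over all genes tested. *Nr1h3* passed the filter through the TGFβ1 libraries, in which all 4 were above the limit, against 3 of the untreated.

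**Figure D1:**
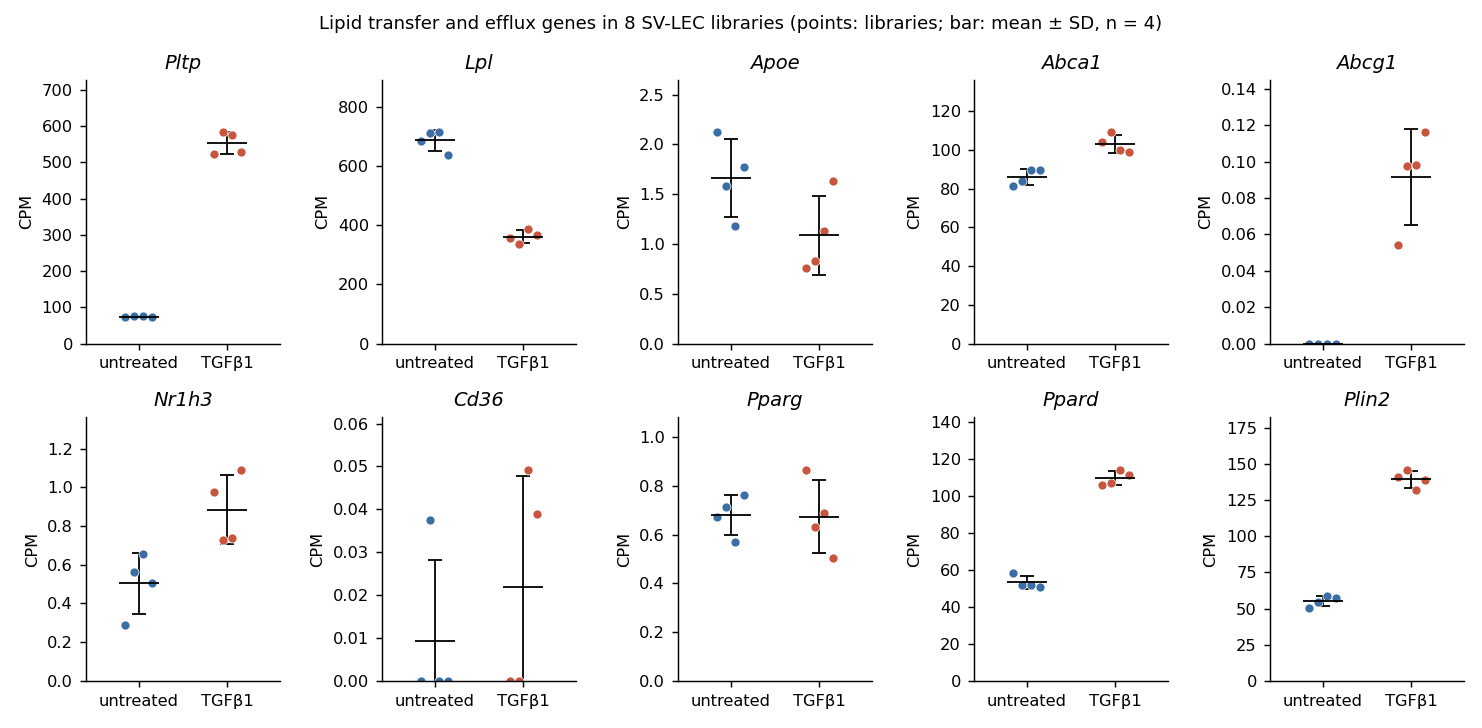
Level of each of the 10 lipid genes as the normalized read count (CPM, linear axis from 0) in the 4 untreated (blue) and 4 TGFβ1 (red) libraries, with the mean ± SD. The groups are far apart for *Pltp*, *Lpl*, *Ppard* and *Plin2*, whereas they overlap for *Apoe* and *Pparg*, and the values of *Abcg1* and *Cd36* stand for at most 3 counts.

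The sequences before the start sites are given for the 4 well-measured genes that were higher, to show what the regulatory regions of these genes hold. They are from RefSeq on GRCm38.p6 and comprise 250 bases up to the start site, read 5′ to 3′ on the strand of the gene. Capitals mark CAGAC, the core letters bound by SMAD proteins, the transcription factors that TGFβ receptors activate, or the same letters on the other strand. *Pltp* is at chr2:164857709-164857958 (minus strand), *Plin2* at chr4:86670060-86670309 (minus strand), *Ppard* at chr17:28232504-28232753 (plus strand) and *Abca1* at chr4:53159896-53160145 (minus strand).
Pltp: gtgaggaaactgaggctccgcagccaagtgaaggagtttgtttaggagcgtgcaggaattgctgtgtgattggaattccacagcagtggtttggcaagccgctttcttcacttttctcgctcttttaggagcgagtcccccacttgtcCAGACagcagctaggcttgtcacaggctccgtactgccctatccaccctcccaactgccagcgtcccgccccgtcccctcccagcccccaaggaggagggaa
Plin2: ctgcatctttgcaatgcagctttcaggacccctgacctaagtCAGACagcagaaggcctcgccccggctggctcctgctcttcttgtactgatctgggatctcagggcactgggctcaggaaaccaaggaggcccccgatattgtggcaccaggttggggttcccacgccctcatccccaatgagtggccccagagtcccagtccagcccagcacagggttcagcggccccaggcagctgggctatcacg
Ppard: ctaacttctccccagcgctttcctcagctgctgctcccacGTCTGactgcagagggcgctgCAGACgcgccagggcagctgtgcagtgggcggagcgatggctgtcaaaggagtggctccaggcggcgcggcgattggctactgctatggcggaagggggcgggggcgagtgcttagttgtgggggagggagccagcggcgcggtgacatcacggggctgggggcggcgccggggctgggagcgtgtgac
Abca1: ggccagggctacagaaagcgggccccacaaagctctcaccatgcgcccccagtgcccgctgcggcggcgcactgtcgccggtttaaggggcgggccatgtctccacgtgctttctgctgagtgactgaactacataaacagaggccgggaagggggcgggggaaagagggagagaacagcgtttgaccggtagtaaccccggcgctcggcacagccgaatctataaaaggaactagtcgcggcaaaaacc

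RefSeq windows were found for 8 of the 10 genes, with 13 start sites in all. *Lpl* and *Abcg1* had none in the table used. In windows of 300 bases, of which 250 lie before and 50 after the start, CAGAC on either strand was present in 49.6% of 32851 promoters. It was found once before and once after the start of *Pltp*, once before the start of *Plin2* and on each strand before the start of *Ppard*. *Abca1* was the only gene of the 8 with no match in any window. *Apoe*, *Nr1h3* and *Pparg* had several windows each, some with and some without a match. This count by gene is therefore not comparable with the 49.6% of single windows. A direct repeat of AGGTCA with a spacer of 1 base, the kind of element that PPAR and RXR bind, was searched on both strands with at most 1 mismatch in each copy. It was present in 2.40% of promoters and, among the 13 windows, only at *Cd36*, apart from the CAGAC there. The repeat with a spacer of 4 bases, the kind bound by LXR and RXR, was present in 1.75% of promoters and in none of the 13 windows. These matches are letters in a window and say nothing about binding.

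*Pltp* had the largest fold change of the 8 genes tested. It encodes phospholipid transfer protein, a secreted protein that moves phospholipids between lipoproteins and remodels HDL. The gene lies at chr2:164839518-164857711 on the minus strand (ENSMUSG00000017754). Its level, as counts scaled to the library size (CPM), was 72.0, 75.3, 76.3 and 72.8 CPM in the untreated libraries and 524, 582, 574 and 528 CPM after TGFβ1. Every treated library was thus far above every untreated one. The mean rose from 74.1 ± 2.01 to 552 ± 30.4 CPM (SD, n = 4), which is 7.45-fold. The log2 fold change was 2.90 (SE 0.0492, 95% interval 2.80 to 2.99), with a likelihood ratio statistic of 3165.04 and an edgeR FDR below the smallest number the software can hold. Of all genes tested, 306 (2.21%) had a larger absolute log2 fold change.

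*Pltp* shares 19.3% of its exon bases with *Ctsa*, the lysosomal protease cathepsin A, on the opposite strand. The library kit keeps the strand, but the strand setting of the counting is not given in the sources used here. *Ctsa* was at 237 ± 10.2 CPM in untreated and 232 ± 7.44 CPM in treated libraries (SD, n = 4), with a log2 fold change of -0.03 (edgeR FDR 0.501). The ratio of *Pltp* to *Ctsa* within a library, on a scale corrected for length (transcript level per exon length, scaled to a fixed sum, TPM), was 0.576 ± 0.0168 without and 4.39 ± 0.358 with TGFβ1 (SD, n = 4).

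*Lpl* moved in the other direction. It encodes lipoprotein lipase, the enzyme that hydrolyzes triglycerides of chylomicrons and VLDL, and lies at chr8:68880491-68907448 on the plus strand. It was at 684, 711, 713 and 638 CPM in untreated SV-LECs and at 358, 335, 387 and 366 CPM after TGFβ1. The groups did not overlap, and the lowest untreated library was well above the highest treated one. The mean fell from 686 ± 34.9 to 362 ± 21.4 CPM (SD, n = 4), 1.90-fold lower after TGFβ1. The log2 fold change was -0.92 (SE 0.0520, 95% interval -1.03 to -0.82, edgeR FDR 2.17e-68).

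*Pltp* and *Lpl* therefore changed order. Per length, *Lpl* was the highest of the 10 genes in untreated cells at 267 TPM (range 249 to 279), followed by *Pltp* at 118 TPM (114 to 121). After TGFβ1, *Pltp* led with 856 TPM (812 to 905), *Plin2* followed with 158 TPM (149 to 166), and *Lpl* was the third with 137 TPM (127 to 146). The ratio of *Pltp* to *Lpl* within a library was 0.431, 0.433, 0.438 and 0.467 in the untreated group and 5.98, 7.10, 6.07 and 5.90 in the TGFβ1 group. Each library was on its own group's side of 1. *Pltp* made up 22.8 ± 0.295% of the summed TPM of the 10 genes without and 68.3 ± 1.20% with TGFβ1, and *Lpl* 51.6 ± 1.29% and 11.0 ± 0.776% (SD, n = 4).

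**Figure D2:**
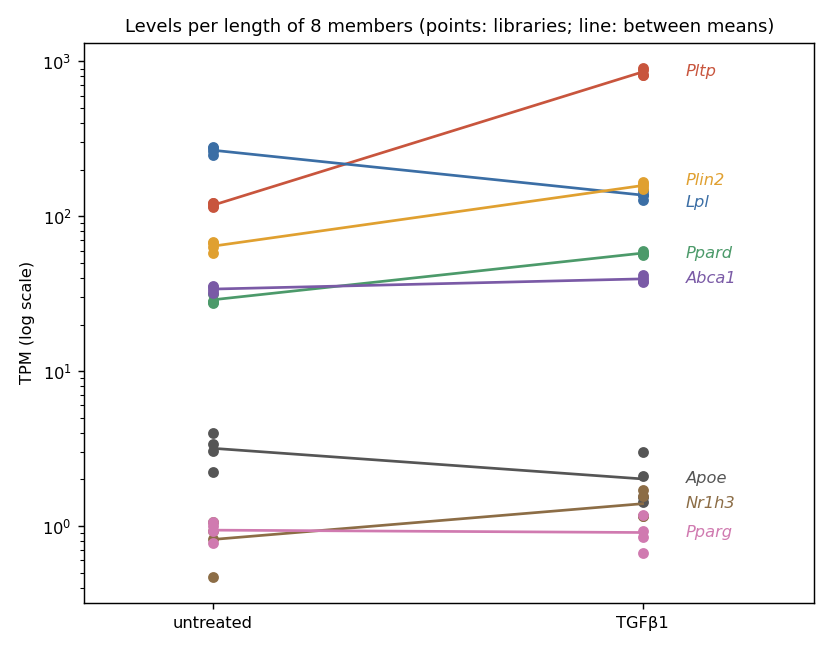
Level per length (TPM, log axis) of 8 of the 10 genes in each library of the 2 groups, with lines between the group means. *Pltp* and *Plin2* pass above *Lpl*, *Ppard* passes above *Abca1*, and *Apoe*, *Nr1h3* and *Pparg* stay at the bottom with overlapping ranges after TGFβ1.

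*Apoe* was low and its difference was not stable. It encodes apolipoprotein E, a ligand through which cells take up lipoproteins, and lies at chr7:19696109-19699188 on the minus strand. The untreated libraries held 44, 42, 27 and 35 counts and the treated ones 14, 17, 23 and 42. The fourth treated library was higher than 2 of the untreated ones in CPM, so the groups overlapped. The mean was 1.66 ± 0.393 CPM without and 1.09 ± 0.397 CPM with TGFβ1 (SD, n = 4), a log2 fold change of -0.57 (SE 0.254, 95% interval -1.07 to -0.07, edgeR FDR 0.0313). With edgeR's quasi-likelihood test the FDR was 0.0559, and with DESeq2 the adjusted p was 0.0693. Leaving out untreated library 1, 2 or 4 or treated library 1, 2 or 3 also ended the call, with edgeR FDRs of 0.0506 to 0.123.

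Of the efflux pumps, *Abca1* was well expressed and *Abcg1* was nearly absent. *Abca1* encodes the transporter that loads cholesterol and phospholipid onto lipid-poor apolipoprotein A-I (chr4:53030787-53159895, minus strand). It was at 81.5, 83.7, 89.6 and 89.7 CPM in untreated and at 104, 109, 99.8 and 99.1 CPM in treated libraries. The groups did not overlap, although the gap between them was small. The mean was 86.1 ± 4.14 CPM without and 103 ± 4.44 CPM with TGFβ1 (SD, n = 4), and the log2 fold change of 0.26 (SE 0.0506, 95% interval 0.16 to 0.36, edgeR FDR 8.97e-07) was smaller in size than that of 64.9% of all genes tested. Relative to *Pltp* in the same library, *Abca1* went from 0.287 ± 0.0131 to 0.0461 ± 0.00244 on the TPM scale (SD, n = 4).

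*Abcg1*, which encodes the pump that delivers sterol to HDL (chr17:31057675-31117988, plus strand), had 0 counts in all 4 untreated libraries and 1, 2, 2 and 3 counts in the treated ones. A count of 0 allows up to 3 counts, which is 0.113 to 0.152 CPM in the untreated libraries, and no treated library passed that number of counts. No fold is given. *Abcg1* did not pass the filter, and without a filter on low counts it was called higher (edgeR FDR 0.00224). *Cd36*, the fatty acid translocase and scavenger receptor (chr5:17781690-17888801, minus strand), had 0, 1, 0 and 0 counts in untreated and 0, 0, 1 and 1 counts in treated libraries. A difference in *Cd36* was not detectable at this depth (edgeR FDR 0.639 without a filter).

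*Ppard* was the most abundant of the 3 nuclear receptor genes per length, with 28.9 TPM in untreated and 57.8 TPM in treated cells. It encodes PPARδ, a fatty acid receptor found in most tissues, and lies at chr17:28232700-28301474 on the plus strand. It was at 58.2, 52.0, 51.9 and 50.9 CPM in untreated and at 106, 107, 114 and 111 CPM in treated libraries. The first untreated library was above the other 3 of its group and still far below every treated one. The mean was 53.3 ± 3.34 and 109 ± 3.60 CPM (SD, n = 4), 2.05-fold higher after TGFβ1. The log2 fold change was 1.04 (SE 0.0524, 95% interval 0.94 to 1.14, edgeR FDR 7.74e-86). Reads of 1810013A23Rik cannot be told apart from those of *Ppard* in this shared row.

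*Pparg*, which encodes the adipocyte receptor PPARγ (chr6:115360951-115490399, plus strand), held 14, 19, 13 and 15 counts in untreated and 16, 13, 14 and 13 counts in treated libraries. The mean was 0.679 ± 0.0822 and 0.673 ± 0.150 CPM (SD, n = 4), and the groups overlapped. The log2 fold change was -0.04 (edgeR FDR 0.898) with a 95% interval of -0.58 to 0.50, which leaves room for a change of either sign. Within a library, *Ppard* exceeded *Pparg* on the TPM scale 26.3- to 35.9-fold without and 48.1- to 86.4-fold with TGFβ1.

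*Nr1h3* encodes LXRα, an oxysterol receptor that controls *Abca1*, *Abcg1* and *Apoe* in macrophages (chr2:91184061-91202834, minus strand). It held 6, 15, 15 and 10 counts in untreated and 18, 15, 15 and 28 counts in treated libraries. Scaled to the normalized library sizes, these were 0.289, 0.563, 0.655 and 0.507 CPM and 0.974, 0.730, 0.738 and 1.09 CPM. The groups did not overlap, although the gap from 0.655 to 0.730 CPM was small and 15 counts lay on both sides of it. The mean was 0.504 ± 0.156 without and 0.882 ± 0.177 CPM with TGFβ1 (SD, n = 4). The log2 fold change was 0.80 (SE 0.283, 95% interval 0.24 to 1.35) with an edgeR FDR of 0.00582, and the DESeq2 adjusted p was 0.0433. In the filter on low counts, all 4 TGFβ1 libraries of *Nr1h3* were above the limit, against 3 of the untreated. The gene was therefore tested only because of the group in which it was higher. A filter of 1 CPM in 4 libraries removed *Nr1h3* and *Pparg* from the test.

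*Plin2* encodes perilipin 2, the coat protein of lipid droplets in cells that are not adipocytes (chr4:86648386-86670060, minus strand). It was at 50.6, 54.4, 58.6 and 57.3 CPM in untreated and at 141, 146, 132 and 139 CPM in treated libraries. Every treated library was above every untreated one, and neither group had a library far from the others. The mean was 55.2 ± 3.53 and 140 ± 5.75 CPM (SD, n = 4), 2.53-fold higher after TGFβ1. The log2 fold change was 1.34 (SE 0.0540, 95% interval 1.23 to 1.44, edgeR FDR 2.02e-132), and 10.9% of all genes tested had a larger one in absolute size. The share of *Plin2* in the summed TPM of the 10 genes was 12.4 ± 0.786% and 12.6 ± 0.702%, while the sum itself went from 517 ± 16.7 to 1250 ± 46.7 TPM (SD, n = 4).

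**Figure D3:**
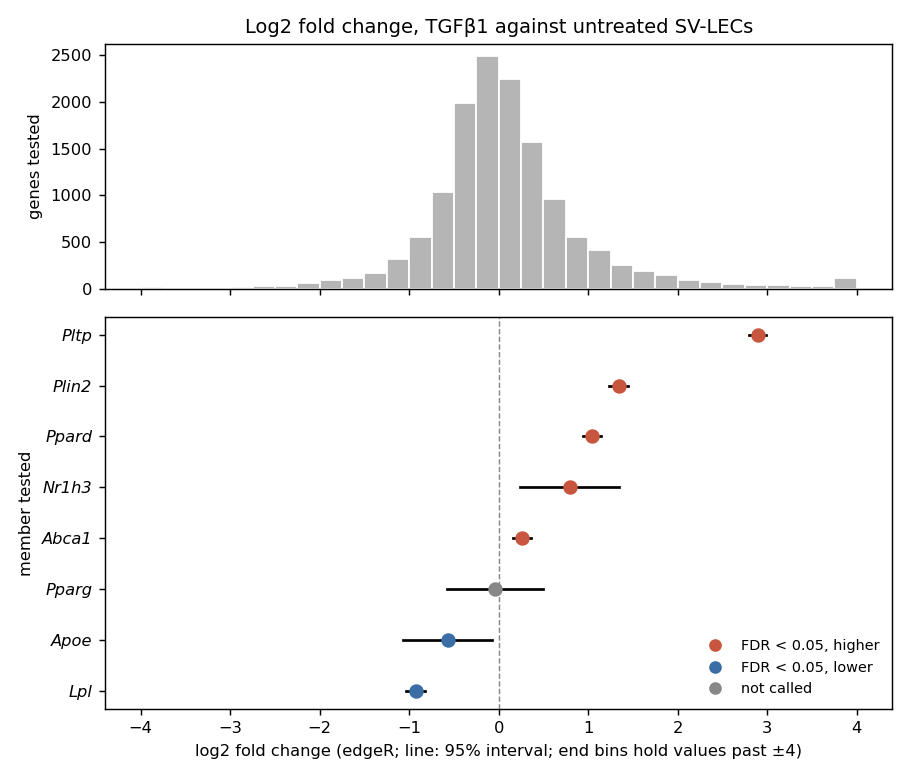
Upper panel, number of genes tested at each log2 fold change between TGFβ1 and untreated SV-LECs. Lower panel, log2 fold change of the 8 lipid genes tested, with the 95% interval as a line and the call at an edgeR FDR under 0.05 in color. *Pltp* at 2.90 lies in the right tail of all genes, and the interval of *Pparg* spans 0.

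The order of the levels per length was clear for the abundant genes only. In untreated cells *Lpl*, *Pltp*, *Plin2*, *Abca1*, *Ppard* and *Apoe* followed each other in TPM without overlap between neighbors. *Pparg* (0.939 TPM) and *Nr1h3* (0.818 TPM) overlapped. After TGFβ1 the order was *Pltp*, *Plin2*, *Lpl*, *Ppard* (57.8 TPM) and *Abca1* (39.4 TPM), again without overlap. *Apoe* (2.01 TPM) overlapped with *Nr1h3* (1.39 TPM), and *Nr1h3* with *Pparg* (0.906 TPM).

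Markers of other cells that express these genes were also counted. In bulk RNA, fewer cells of a type and less RNA per cell cannot be told apart. Of 10 macrophage markers, 6 had at most 3 counts in every library, among them *Ptprc*, *Adgre1* and *C1qa*. The summed level of the list was 6.31 to 8.34 CPM in untreated and 16.5 to 19.2 CPM in treated libraries, most of it from the lysosomal gene *Cd68*. Of 9 adipocyte markers, 5 had at most 3 counts in every library, *Adipoq* being at 0 throughout, and the sum was 6.24 to 8.72 and 7.16 to 8.17 CPM. The 9 fibroblast and mural markers summed to 3300 to 4650 CPM without and 5600 to 6730 CPM with TGFβ1, most of it from *Col1a1*. Of the 7 tested, 4 were higher (*Col1a1*, *Pdgfrb*, *Cspg4* and *Myh11*) and 3 were lower (*Dcn*, *Pdgfra* and *Thy1*). The part of the fibroblast and mural genes, of the endothelial markers that rose and of *Cd68* in the levels of *Pltp*, *Plin2* and *Ppard* was not tested.

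The neighbors of the 10 genes in their pathways were then counted in 10 lists with 164 genes, of which 116 were tested. These lists, too, were drawn up with results of the data known, and values in parentheses below are log2 fold changes. Of the genes named in them, *Ch25h*, *Acsl1*, *Pon2* and *Fabp3* share 9.27% to 11.5% of their exon bases with a gene on the opposite strand. After TGFβ1, 45 of the 116 tested were higher, 49 were lower and 22 were not called (edgeR FDR under 0.05). Thus 81.0% were called against 75.6% of all genes. The shares of all genes that were higher (37.6%) and lower (38.0%) stand beside the counts of each list below. Some genes are in more than 1 list.

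**Figure D4:**
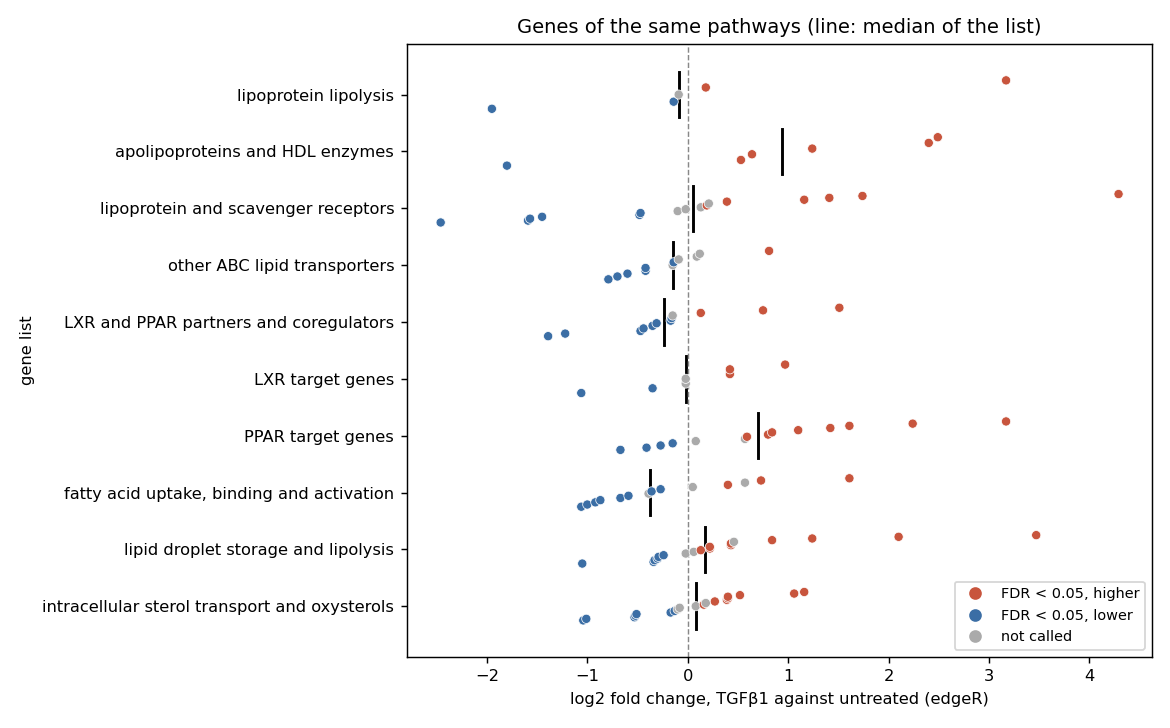
Log2 fold change between TGFβ1 and untreated SV-LECs for each tested gene of the 10 lists, in color where the edgeR FDR was under 0.05, with the median of each list as a black line. The medians of the PPAR target genes (0.69) and of the apolipoproteins and HDL enzymes (0.94) lie to the right. That of fatty acid uptake (-0.37) lies to the left, and all 10 lists hold genes on both sides. The 0.94 includes *Apoa2* and *Apod*, which passed the filter on low counts only through the TGFβ1 libraries.

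The partners of lipoprotein lipase differed in level and direction. *Gpihbp1*, which anchors the enzyme on capillary endothelium, and *Apoc2*, its activator, had 0 counts in all 8 libraries. *Apoc2* shares 79.5% of its exon bases with Gm44805 on the same strand, so its 0 does not measure absence of the transcript. *Angptl4*, a secreted inhibitor of the enzyme, rose from 14.4 ± 0.810 to 130 ± 3.05 CPM (SD, n = 4), a log2 fold change of 3.17 (SE 0.0583), beside 2.90 for *Pltp* and -0.92 for *Lpl*. *Lipg*, the endothelial lipase that acts on HDL phospholipids, fell from 4.00 ± 0.649 to 1.03 ± 0.152 CPM (log2 fold change -1.95, edgeR FDR 8.71e-25). *Lmf1*, needed for the folding of *Lpl* protein, had a log2 fold change of -0.09 (edgeR FDR 0.311). Of the 5 tested genes of the lipolysis list, 2 were higher, 2 were lower and 1 was not called, the others being *Lmf2* (0.18) and *Sel1l* (-0.14).

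Of the apolipoproteins and the enzymes that ride on HDL, 6 of 14 were tested, and 5 of these were higher and 1 was lower after TGFβ1. Among the 5, *Apoa2* and *Apod* passed the filter on low counts only through the TGFβ1 libraries. Their untreated libraries reached at most 0.376 and 0.262 CPM, under the filter limit of 0.477 CPM. *Lcat*, which esterifies the cholesterol that HDL takes up, rose from 1.77 ± 0.171 to 9.99 ± 1.16 CPM (log2 fold change 2.49, edgeR FDR 6.17e-67). *Pon2* (0.64) and *Pon3* (0.53) of the paraoxonase family were higher too. *Clu*, which encodes clusterin or apolipoprotein J, fell from 12.2 ± 1.12 to 3.48 ± 0.275 CPM (log2 fold change -1.80, edgeR FDR 2.35e-53). *Apoa1*, the acceptor for *Abca1*, had at most 1 count in any library.

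Among 16 tested lipoprotein and scavenger receptors, 6 were higher, 6 were lower and 4 were not called. *Lrp1*, a receptor of *Apoe*-rich remnants, rose from 485 ± 24.7 to 1620 ± 133 CPM (SD, n = 4), with a log2 fold change of 1.74 (SE 0.0589, edgeR FDR 2.06e-180). The scavenger receptors *Stab1* (4.29) and *Olr1* (1.41) rose as well. *Stab1* had an untreated mean of only 0.278 CPM, under the filter limit of 0.477 CPM, and could not have passed without TGFβ1 libraries. *Vldlr*, a receptor for *Apoe*-containing particles, fell (-1.59), and so did *Lrp2* (-1.57). *Scarb1*, the HDL receptor, was lower by a smaller amount (log2 fold change -0.47, edgeR FDR 3.37e-28), and *Lrp8* was not called (0.21, edgeR FDR 0.179).

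Of 11 other ABC lipid transporters tested beside *Abca1*, 1 was higher (*Abca8b*, log2 fold change 0.81), 6 were lower and 4 were not called. *Abca6* (-0.79) and *Abca9* (-0.70), relatives of *Abca8b*, were among those that were lower.

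The partner receptors and coregulators of *Nr1h3*, *Ppard* and *Pparg* were lower in 8 of 12 tested, higher in 3 and not called in 1. The RXR genes *Rxra* (41.1 ± 1.62 to 29.7 ± 1.07 CPM, log2 fold change -0.47) and *Rxrb* (-0.44) both fell. *Nr1h2*, which encodes LXRβ, was at 49.3 ± 6.30 and 44.3 ± 5.06 CPM and was not called (log2 fold change -0.15, edgeR FDR 0.129). It was called lower with total counts (-0.22, edgeR FDR 0.0266) and without untreated library 4 (-0.21, edgeR FDR 0.0275). Per length, *Nr1h2* was at 59.9 ± 7.39 and 52.4 ± 5.70 TPM (SD, n = 4), against 0.818 and 1.39 TPM for *Nr1h3*. *Nrip1*, a corepressor gene, rose (0.75), and *Med1* was called higher by a small amount (0.13, edgeR FDR 0.0102) that was not called with total counts (0.06, FDR 0.247) or without untreated library 1 (0.10, FDR 0.0561), while the bile acid receptor *Nr1h4* (-1.22) fell. *Ppara* and the coactivator *Ppargc1a* were too low to be tested, the first with 3 to 9 counts in each library.

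Known targets of LXR were split. Of 7 tested genes of 12, 3 were higher (*Arl4c*, 0.97; *Lpcat3*, 0.42, which overlaps *Emg1* on the opposite strand; *Fasn*, 0.42), 2 were lower (*Scd1*, -1.06; *Scd2*, -0.35) and 2 were not called. *Srebf1* and *Mylip*, both classical LXR targets, each had a log2 fold change of -0.02 (edgeR FDR 0.884 and 0.935). *Abca1*, itself an LXR target, had a log2 fold change of 0.26.

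Of 14 tested known targets of the PPARs, 8 were higher, 4 were lower and 2 were not called. Among all genes tested, 37.6% were higher and 38.0% were lower. *Angptl4*, *Hilpda*, *Fabp3*, *Fabp4* and *Fabp5* are also counted in another list. *Pdk4*, a kinase that holds back glucose oxidation, rose from 1.24 ± 0.372 to 5.76 ± 0.305 CPM (log2 fold change 2.24, edgeR FDR 3.54e-46). *Cpt1a*, which admits fatty acids to mitochondria, rose from 100 ± 5.21 to 269 ± 12.1 CPM (log2 fold change 1.42, edgeR FDR 2.49e-175). *Fabp3* (1.61) and *Hilpda* (0.84) were higher, and so was *Angptl4*, given above. *Fabp3* was low, and a filter of 1 CPM in 4 libraries removed it from the test. Which group carried it through the main filter is not given here. *Fabp5* (-0.67), *Acadm* (-0.41) and *Acaa2* (-0.27) were lower. *Fabp4*, a PPARγ target of adipocytes, was at 0.739 ± 0.419 and 1.13 ± 0.138 CPM and was not called (0.57, edgeR FDR 0.0797). Untreated library 2 decided this call, since without it the value was 1.05 (edgeR FDR 0.000419). The median log2 fold change of the list was 0.69, that of all genes tested -0.006.

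With *Cd36* near 0, the other genes of fatty acid uptake and activation were counted. Of 14 tested, 8 were lower, 3 were higher and 3 were not called, with a median log2 fold change of -0.37. The acyl-CoA synthetases *Acsl1* (-1.06) and *Acsl3* (-1.0) and the transport protein *Slc27a6* (-0.92) fell most. *Slc27a3* (0.73) and *Slc27a1* (0.40) of the same transporter family were higher.

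Genes of the lipid droplet, in which *Plin2* sits, went both ways. Of 18 tested, 9 were higher, 6 were lower and 3 were not called. *Plin3*, the closest relative of *Plin2* in the list that was well expressed, fell from 98.8 ± 2.87 to 47.5 ± 1.88 CPM (log2 fold change -1.05, edgeR FDR 6.84e-103), the opposite of *Plin2*. *Bscl2*, which encodes the droplet assembly protein seipin and overlaps *Gng3* on the opposite strand, rose from 39.8 ± 2.35 to 170 ± 7.34 CPM (log2 fold change 2.10). The phosphatidate phosphatase genes *Lpin3* (3.47, from 0.202 CPM) and *Lpin1* (1.24) rose too. The untreated mean of *Lpin3* was under the filter limit of 0.477 CPM, so *Lpin3* could not have passed without TGFβ1 libraries. The triglyceride synthases *Dgat2* (-0.33) and *Dgat1* (-0.30) and the lipase *Pnpla2* (-0.34) were lower, and *Soat1*, which esterifies cholesterol, was higher by 0.22 (edgeR FDR 3.84e-06).

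Genes of sterol movement inside the cell, which feeds *Abca1*, were also mixed, with 8 higher, 7 lower and 4 not called of 19 tested. *Osbpl5* (1.16), *Cyp27a1* (1.06), *Lipa* (0.52) and *Npc1* (0.40) were higher, the last 2 encoding the lysosomal lipase and the lysosomal cholesterol exporter. *Stard4* (-1.04), *Stard5* (-1.01, overlapping *Il16* on the opposite strand) and *Osbpl2* (-0.52) were lower. *Ch25h*, which makes the LXR ligand 25-hydroxycholesterol, had a log2 fold change of 0.18 (edgeR FDR 0.153).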

How the data were processed

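RNA of 8 SV-LEC samples (4 untreated, 4 TGFβ1) was sequenced from stranded poly(A) libraries. The authors deposited raw read counts per gene in a single table. Per the submitters' processing notes, bcl2fastq 2.20.0.422, STAR 2.7.3a, featureCounts 1.5.1 and GRCm38/mm10 were used. The annotation release and the strand setting of the counting are not given in the sources used here. The members and the gene lists were chosen with earlier results of these data known.

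Samples were grouped by their labels. Counts were tested as deposited in edgeR 4.0.16 (R 4.3.3): filterByExpr, TMM scaling, one dispersion model over all 8 libraries and the GLM likelihood ratio test that the study names, with Benjamini-Hochberg FDR under 0.05 over 13818 genes. Log2 fold changes used a prior count of 0.125, and 95% intervals come from the estimate and its SE. CPM used TMM-scaled library sizes. TPM used merged exon lengths of GENCODE M21, in which 55144 of 55471 genes were found by Ensembl identifier. Fold changes of means are ratios of mean CPM. A count of 3 corresponded to 0.113 to 0.162 CPM, and these floors cover counting error only. The 95% intervals cover counting error and the spread between these libraries as fitted by the dispersion model, and nothing beyond these libraries. Replicates differed by more than sampling noise (chi-square per degree of freedom 2.37 to 7.84), so none was merged.

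Named were all members, their functional partners, and in each list up to 3 rises and 3 falls with FDR under 0.05, groups that did not overlap and a mean of at least 1 CPM in one group. Some genes that this rule names are counted but not reported by name here. Alternatives were the quasi-likelihood test, DESeq2 1.42.0, DESeq2 size factors, scaling to total counts, other filters, an FDR under 0.01, a prior count of 2, a replicate block and leaving out each library. On simulated counts, the likelihood ratio test found 85 of 99 genes changed by 0.5 log2 units and 94 of 97 changed by 1. It also made 30 false calls, against 13 with the quasi-likelihood test and 21 with DESeq2. RefSeq promoters were searched for the letters given. No set test was run.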

Additional observations from a re-analysis of the deposited data

Results flagged for a closer look

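In 152 sets of 4 libraries, one for each group of the genes named, 10 had a library that stood apart from the other 3 by Dixon's test. Chance flags about 1 in 20 such sets. Among the lipid genes followed here this was so for *Ppard* only, with 58.2 CPM in untreated library 1 against 50.9 to 52.0 CPM in the other 3, still below all treated libraries. In the TGFβ1 group, library 1 stood apart for *Angptl4* (134 CPM against 128 in the others), *Fasn* (244 against 222 to 225 CPM) and *Dgat1* (11.0 against 11.8 to 11.9 CPM). Library 2 of that group did so for *Bscl2* (181 against 166 to 167 CPM), library 3 for *Rxrb* (43.3 against 40.5 to 40.7 CPM) and library 4 for *Stard5* (18.1 against 19.8 to 19.9 CPM). In the untreated group it was library 1 for *Slc27a3* (13.2 against 11.8 to 12.0 CPM), library 3 for *Npc1* (47.5 against 50.6 to 51.0 CPM) and library 4 for *Stard4* (119 against 109 to 110 CPM).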

How the results depend on the processing

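Across 17 alternatives, *Pltp*, *Lpl*, *Abca1*, *Ppard* and *Plin2* kept their direction and their call in each, and *Nr1h3* in the 16 that tested it. The lipid genes called lower numbered 2, and 1 with the quasi-likelihood test, with DESeq2, at an FDR under 0.01 and, without one library at a time, 1 to 2, because *Apoe* was lost. The count of genes called higher was 5, with 6 where no filter on low counts was used, since *Abcg1* entered (edgeR FDR 0.00224), and 4 with the filter of 1 CPM, which left *Nr1h3* untested. Without one library, the log2 fold change of *Pparg* went from -0.17 to 0.10, that of *Srebf1* from -0.09 to 0.06 and that of *Mylip* from -0.16 to 0.14, none of them called. *Med1* lost its call with total counts (0.06), without a filter (0.10), at an FDR under 0.01 and without untreated library 1. *Nr1h2* gained one with total counts (-0.22) and without untreated library 4 (-0.21), and *Lrp8* without untreated library 1 (0.35). Scaling to total counts shifted the median of all genes to -0.0735 and the value of *Abca1* to 0.19, with 4627 genes called higher and 5899 lower. Replicate numbers did not pair the samples (correlation of same-numbered deviations -0.193 to -0.034, and no library correlated best with its own number). With a replicate block, 5 lipid genes were higher and 2 lower, 5075 genes were higher and 5077 lower in all, and *Fabp4* was called (0.66, edgeR FDR 0.0484). It was also called without untreated library 2 (1.05, edgeR FDR 0.000419), and its lowest value without one library was 0.32. Depth limits *Apoe*, *Nr1h3*, *Pparg*, *Abcg1* and *Cd36*, with at most 44 counts in any library.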
